A study of Homo sapiens with 6 samples.

Results

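Expression of 10 genes known as targets of the tumour suppressor p53 or as growth arrest genes was followed in HCT116, an established cell line from a human colorectal carcinoma. They are CDKN1A, GADD45A, PLK3, BTG2, MDM2, TP53INP1, PMAIP1, BBC3, TNFRSF10B and GDF15. They were chosen by symbol, with earlier results of these data known, and all 10 were among the 14987 genes of the deposited table. The study asked what YAP, a coactivator under control of the Hippo pathway, contributes to the gene expression that loss of glucose induces. Cells labelled NC, of wild type genotype, gave 1 library in control medium and 1 after glucose deprivation for 6 h. Cells labelled YAP knockdown gave 4 libraries, 1 per medium for the construct shYAP1 and 1 per medium for shYAP3. All 6 libraries are HCT116 cells described as colorectal cancer cells, and the labels state neither replicate cultures nor clones, so p-values measure only the spread between these libraries.

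p53 is a transcription factor that is stabilised under stress, when its ubiquitin ligase MDM2 no longer holds it down. It raises genes that stop the cell cycle, such as CDKN1A, genes that repair DNA, and genes that trigger death through mitochondria or death receptors, and it raises MDM2 itself as a negative feedback. Several genes of the set, among them PMAIP1, BBC3, GADD45A, GDF15 and TNFRSF10B, are also known targets of ATF4, ATF3 or CHOP, the transcription factors of the integrated stress response and of unfolded protein stress.

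Libraries held 16912634 to 22161075 listed reads, and 1 read was worth 0.0406 to 0.0693 of the deposited normalized read count, the unit of every level given here. In control medium YAP1 stood at 188 (NC), 35.7 (shYAP1) and 38.2 (shYAP3), and deprived libraries of the same constructs had 154, 20.3 and 18.2. Of 12 markers of colorectal epithelium 9 were found, with KRT8 between 1642 and 3250 and EPCAM between 202 and 354, while VIL1 reached at most 3.72. The shYAP3 deprived library stood apart in its dependence on transcript length. Its median deviation from the gene mean was 0.44 (log2) among the 1213 genes with the shortest transcripts and −0.29 among the 1211 with the longest, against −0.19 to 0.14 and −0.08 to 0.12 in the other 5 libraries. Summed markers of fibroblasts ran from 8.14 to 10.3 in control and 3.05 to 6.33 in deprived libraries (3 of 7 found), those of leukocytes from 8.14 to 13.3 and 12.2 to 24.0 (4 of 6), and those of endothelium from 3.61 to 4.87 and 3.74 to 7.96 (3 of 6). KDR of endothelium and PDGFRB of fibroblasts were each at 0 in at least 1 library. The part of these markers and of the length dependence in the results was not tested, beyond the fits named beside them.

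Promoter sequence was available for 7 of the 10 genes, and GADD45A, TNFRSF10B and TP53INP1 had no entry. The 250 bases before each RefSeq start (GRCh38.p14) were searched on both strands for the p53 element, for TGATGNAA (the ATF4 and C/EBP composite site), for TGANTCA (AP-1) and for TGACGT (a half-site of the cyclic AMP response element). The p53 element was taken as 2 decamers side by side with the core C and G of each kept and at most 2 mismatches. Of 35116 promoters of this length, 0.242% held it, 3.14% held TGATGNAA, 6.57% held TGANTCA and 7.1% held TGACGT. The 4 promoters with a match are shown 5′ to 3′ along the gene's strand, with the matches in capitals.
MDM2, chr12:68808767-68809016, plus strand: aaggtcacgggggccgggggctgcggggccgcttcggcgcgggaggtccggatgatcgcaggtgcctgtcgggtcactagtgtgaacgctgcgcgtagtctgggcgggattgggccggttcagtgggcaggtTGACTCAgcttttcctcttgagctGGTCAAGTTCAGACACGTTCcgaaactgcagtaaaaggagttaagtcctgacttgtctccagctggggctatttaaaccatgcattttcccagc
PLK3, chr1:44800127-44800376, plus strand: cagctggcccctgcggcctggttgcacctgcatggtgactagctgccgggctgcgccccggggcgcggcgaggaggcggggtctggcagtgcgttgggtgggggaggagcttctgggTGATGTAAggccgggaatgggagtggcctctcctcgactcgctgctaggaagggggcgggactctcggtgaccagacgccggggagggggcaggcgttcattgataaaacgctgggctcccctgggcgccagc
PMAIP1, chr18:59899746-59899995, plus strand: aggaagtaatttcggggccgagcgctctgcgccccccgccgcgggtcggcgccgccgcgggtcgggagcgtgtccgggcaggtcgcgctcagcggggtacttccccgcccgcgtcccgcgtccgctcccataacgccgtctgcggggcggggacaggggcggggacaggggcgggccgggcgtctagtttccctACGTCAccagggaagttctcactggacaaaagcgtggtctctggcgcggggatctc
BBC3, chr19:47232668-47232917, minus strand: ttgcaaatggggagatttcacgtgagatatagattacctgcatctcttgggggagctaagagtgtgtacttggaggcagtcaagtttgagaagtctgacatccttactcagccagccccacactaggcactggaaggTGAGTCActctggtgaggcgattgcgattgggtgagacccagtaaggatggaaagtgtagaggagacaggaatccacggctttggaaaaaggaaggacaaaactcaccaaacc
The MDM2 window shown precedes a later start of the gene and holds an AP-1 match. Downstream of that match lies the p53 element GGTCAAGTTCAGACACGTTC with 2 mismatches, 94 to 75 bases before the start. An overlapping MDM2 window held the same matches, and the windows before the earlier MDM2 starts held none. PLK3 holds the composite match TGATGTAA, PMAIP1 the half-site on the other strand, and BBC3 the AP-1 match TGAGTCA. No match was found in the windows of CDKN1A, GDF15 and BTG2, which says only that these letters are not in those windows. A match is a description of sequence and not evidence of a bound site.

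After deprivation 7 of the 10 genes rose, 1 fell and 2 did not pass in limma (Benjamini-Hochberg adjusted p under 0.05). The largest increases were in GDF15 (7.50-fold), GADD45A (4.90-fold), PMAIP1 (4.78-fold) and PLK3 (3.92-fold), followed by CDKN1A (2.25-fold), TNFRSF10B (1.75-fold) and BBC3 (1.69-fold), and TP53INP1 fell to 0.627 of its control level. MDM2 and BTG2 did not pass. Over all 12263 genes tested 32.1% passed, 16.5% higher and 15.6% lower. In the 7 that rose, every deprived library lay above every control library, as in 26.8% of all genes tested. In TP53INP1 every deprived library lay below every control library, as in 23.8%. The median log2 fold change of the 10 genes was 0.99, against 0.05 over all genes tested. Because the genes were chosen with earlier results known, these shares and medians describe the set and are no unbiased comparison. Folds were computed after adding 1 to each value, so those of low genes are understated.

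**Figure D1:**
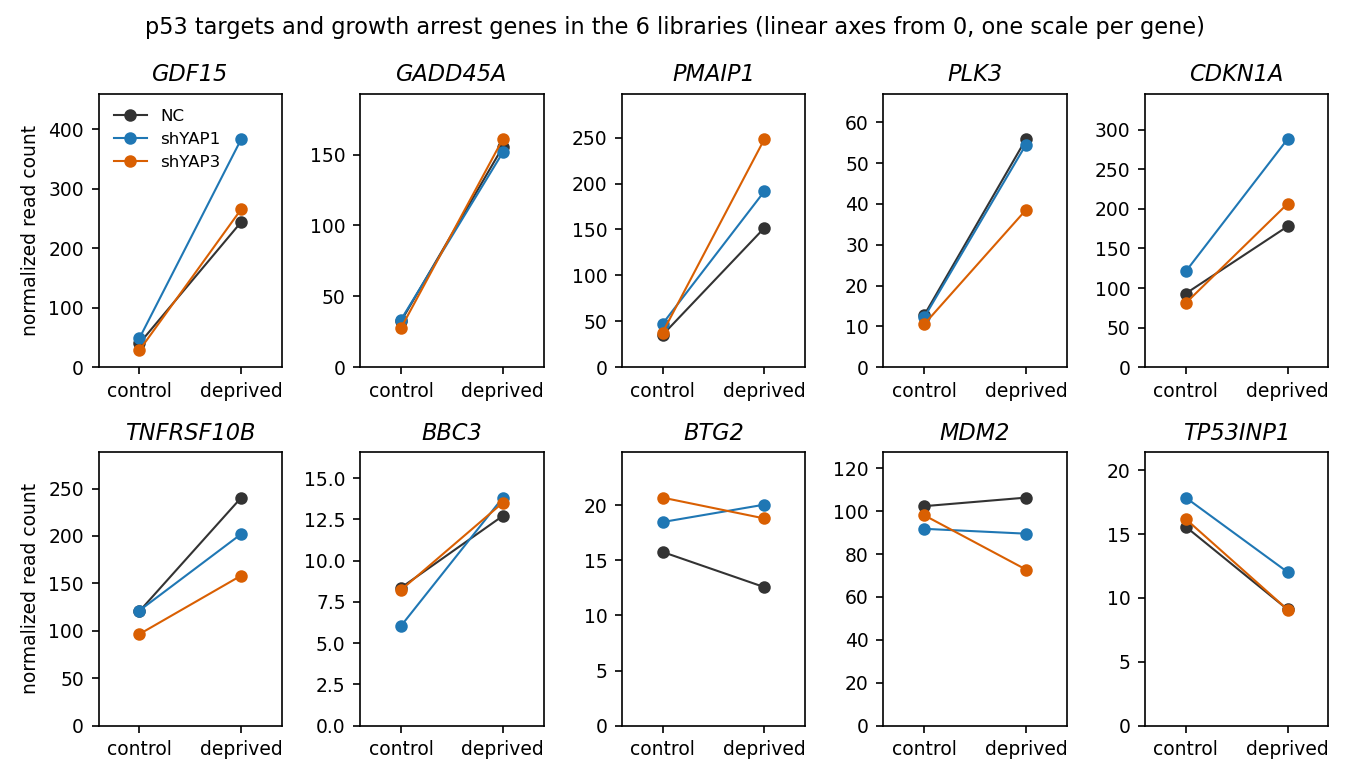
Normalized read count (y axis, linear, from 0, one scale per gene) of each of the 10 genes in control medium and after deprivation (x axis), with one line per construct joining its 2 libraries. GDF15, GADD45A, PMAIP1 and PLK3 rise steeply in NC, shYAP1 and shYAP3 cells, while the BTG2 and MDM2 lines cross and the TP53INP1 lines all descend.

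Among the growth arrest genes, CDKN1A (ENSG00000124762) encodes p21, the inhibitor of cyclin-dependent kinases. Its control libraries held 93.0 (NC), 121 (shYAP1) and 80.9 (shYAP3), and its deprived libraries 178, 288 and 206 in the same order. The groups did not overlap, and shYAP1 cells were highest in both media. The response was 1.17 on the log2 scale (SE 0.20, limma adjusted p = 0.0041), and the deprived to control ratio was 1.91 (NC), 2.38 (shYAP1) and 2.55 (shYAP3). For NC, with 1 library in each medium and no test, the 95% counting interval of that ratio was 1.81 to 2.02 from 2114 and 3343 reads. Counting intervals are exact binomial ones and cover counting error only.

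GADD45A (ENSG00000116717), a stress-induced protein that binds PCNA and activates stress kinases, stood at 32.4, 33.5 and 27.6 in NC, shYAP1 and shYAP3 cells in control medium. After deprivation it reached 155, 151 and 161 in the same order. The deprived libraries lay close together, at 156 ± 4.73 against 31.1 ± 3.13 in control medium (SD, n = 3 libraries per medium). Its response was 2.29 on the log2 scale (SE 0.13, limma adjusted p = 2.38e-05). The ratios were 4.80 (NC), 4.53 (shYAP1) and 5.83 (shYAP3), and the NC counting interval was 4.42 to 5.21.

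PLK3 (ENSG00000173846), a polo-like kinase linked to stress and cell cycle checkpoints, stood at 12.7, 12.2 and 10.5 in NC, shYAP1 and shYAP3 control libraries. It stood at 55.9, 54.5 and 38.5 after deprivation. The shYAP3 deprived library was the lowest of the 3 but lay far above every control library. On the log2 scale PLK3 rose by 1.97 (SE 0.16, limma adjusted p = 0.0002). Its promoter is the one shown with the composite ATF4 and C/EBP match. TCTEX1D4, which overlaps it on the opposite strand, stood at 0.697 or less.

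BTG2 (ENSG00000159388), an antiproliferative protein of the BTG/TOB family, stood at 15.7, 18.5 and 20.7 in NC, shYAP1 and shYAP3 control libraries and at 12.6, 20.04 and 18.8 after deprivation. The groups overlapped, and NC was the lowest construct in both media. Its log2 response was −0.11 (95% interval −0.43 to 0.22, limma adjusted p = 0.58), and −0.40 when scaled to the total of each library (adjusted p = 0.0746).

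Of the genes that feed back on p53, MDM2 (ENSG00000135679), the ubiquitin ligase that degrades it, stood at 102, 91.8 and 98.1 in NC, shYAP1 and shYAP3 cells in control medium. After deprivation it stood at 106, 89.5 and 72.8. The groups overlapped, with 1.04 as the deprived to control ratio in NC cells (counting interval 0.978 to 1.10), 0.975 in shYAP1 and 0.742 in shYAP3 cells. The log2 response was −0.14 (95% interval −0.46 to 0.19, limma adjusted p = 0.48). Over the alternatives MDM2 ran from −0.44 when scaled to the total of each library (limma adjusted p = 0.063) and −0.28 with quantile normalization, through −0.024 without the shYAP3 deprived library, to 0.022 with length and GC content trends removed. CPM, which overlaps MDM2 on the opposite strand, stood between 1.33 and 3.16. The p53 element lies before the later of the MDM2 starts, and the table gives 1 value per gene that does not separate them.

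TP53INP1 (ENSG00000164938), a p53-induced protein that promotes p53 phosphorylation and autophagy, stood at 15.6, 17.9 and 16.2 in NC, shYAP1 and shYAP3 control libraries. It stood at 9.10, 12.02 and 9.08 after deprivation, so that the groups did not overlap. TP53INP1 fell by 0.67 on the log2 scale (SE 0.15, limma adjusted p = 0.013), and the ratios were 0.584, 0.674 and 0.561 in NC, shYAP1 and shYAP3 cells. It did not pass without the NC control library (limma adjusted p = 0.076), the shYAP1 control library (0.0849), the shYAP3 control library (0.0634) or the NC deprived library (0.0755), with log2 values of −0.64 to −0.72.

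Of the genes that act in cell death, PMAIP1 (ENSG00000141682) encodes NOXA, a BH3-only protein that antagonises MCL1. Its control libraries held 35.1 (NC), 47.2 (shYAP1) and 37.7 (shYAP3) and its deprived libraries 152, 192 and 248. The groups lay far apart, and the shYAP3 deprived library was the highest. PMAIP1 rose by 2.26 on the log2 scale (SE 0.16, limma adjusted p = 8.08e-05), and the ratios were 4.33 (NC), 4.06 (shYAP1) and 6.59 (shYAP3). PMAIP1 has a GC content of 37.2%, the lowest of the 10 genes, and with length and GC content trends removed its response was 1.62. Its promoter is the one shown with the half-site of the cyclic AMP response element.

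BBC3 (ENSG00000105327), which encodes PUMA, another BH3-only protein, was among the lowest of the set. It stood at 8.36, 6.04 and 8.22 in NC, shYAP1 and shYAP3 control libraries and at 12.7, 13.8 and 13.5 after deprivation, on 149 to 239 reads a library. The groups did not overlap, and the deprived libraries lay close together. BBC3 rose by 0.76 on the log2 scale (SE 0.16, limma adjusted p = 0.0103). BBC3 did not pass when scaled to the total of each library (log2 0.48, limma adjusted p = 0.0586) or without the shYAP1 control library (0.62, adjusted p = 0.0771). The deposited row carries the identifier of BBC3 with MIR3191, a microRNA inside the gene, in its other symbol column.

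TNFRSF10B (ENSG00000120889) encodes DR5, a death receptor for the ligand TRAIL. It stood at 121, 121 and 96.5 in NC, shYAP1 and shYAP3 control libraries and at 240.4, 202 and 158 after deprivation. NC cells were highest after deprivation, with a ratio of 1.99 (counting interval 1.90 to 2.09), against 1.67 in shYAP1 and 1.64 in shYAP3 cells. TNFRSF10B rose by 0.81 on the log2 scale (SE 0.16, limma adjusted p = 0.0074). It did not pass without the NC control (adjusted p = 0.0624), the shYAP3 control (0.057) or the NC deprived library (0.0615). RHOBTB2, which overlaps it on the opposite strand, stood between 13.6 and 16.9 in control and 9.22 and 9.70 in deprived libraries.

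GDF15 (ENSG00000130513), a secreted stress cytokine of the TGF-beta superfamily, had the largest response of the set. Its control libraries held 39.9 (NC), 48.6 (shYAP1) and 28.4 (shYAP3) and its deprived libraries 244, 384 and 266. All deprived libraries lay far above every control library, and shYAP1 cells were highest in both media. GDF15 rose by 2.91 on the log2 scale (SE 0.23, limma adjusted p = 0.000146). The ratio was 6.12 in NC (counting interval 5.70 to 6.58), 7.89 in shYAP1 and 9.35 in shYAP3 cells.

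**Figure D2:**
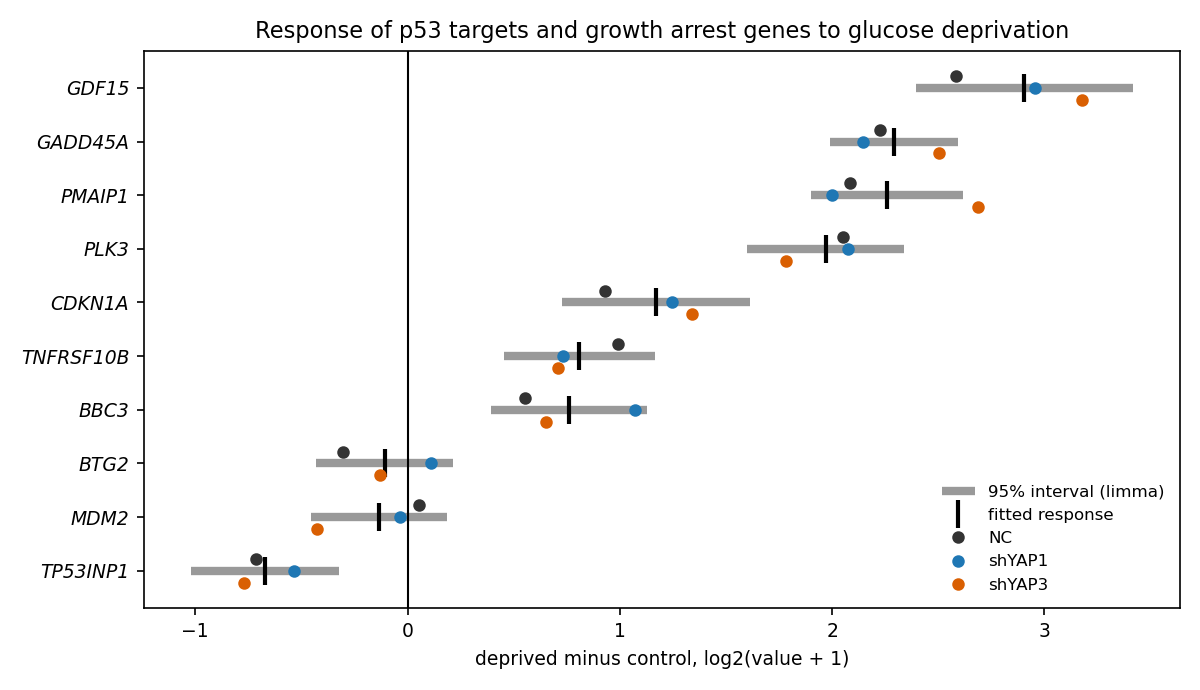
Response to deprivation of each gene (x axis, deprived minus control on the log2(value + 1) scale) as fitted over 6 libraries, with its unadjusted 95% interval in limma as a grey bar, and the difference in NC, shYAP1 and shYAP3 cells as points. The intervals of BTG2 and MDM2 cross 0, that of TP53INP1 lies below it, and those of the 7 genes that rose lie above it.

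CDKN1A, GADD45A, PLK3, PMAIP1 and GDF15 passed in this response under all 15 alternative fits, which changed the scaling, pseudocount, filter or tool or left out 1 library. MDM2 and BTG2 passed in none of them. The share of all genes that passed in every fit, or in none, was not computed, and 16.5% were higher in the main fit. In the shYAP cells alone, where each medium has 2 libraries, 6 genes rose and 0 fell (11.5% of all genes passed, 5.62% higher and 5.9% lower), CDKN1A by 1.29 on the log2 scale (limma adjusted p = 0.0336) and BBC3 by 0.86 (adjusted p = 0.046). There TP53INP1 (−0.65, limma adjusted p = 0.0764) and TNFRSF10B (0.72, adjusted p = 0.0621) did not pass. With the construct as a block, which pairs the 2 libraries of a construct, TP53INP1 (adjusted p = 0.0376) and TNFRSF10B (adjusted p = 0.0196) passed in limma. In that fit more of all genes passed in shYAP cells, 14.6% higher and 12.7% lower. With no filter on low values 0 of the 10 genes and 0 of all 14987 genes passed in shYAP cells. BBC3 there also did not pass when scaled to the total of each library (limma adjusted p = 0.134), in edgeR (adjusted p = 0.052), or without the shYAP1 (0.445) or the shYAP3 control library (0.201), and CDKN1A did not pass without the shYAP3 control library (0.218).

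Per length, the order of the 10 genes changed between the media. Levels per kilobase of the longest GENCODE v29 transcript, which need not be the one expressed, were highest for CDKN1A in control medium, at 43.3 ± 9.04 (SD, n = 3). It was followed by GDF15 (32.5 ± 8.43), TNFRSF10B (27.2 ± 3.41), GADD45A (20.8 ± 2.09) and PMAIP1 (20.5 ± 3.28). MDM2 (7.71 ± 0.421), BTG2 (6.75 ± 0.910), PLK3 (4.73 ± 0.464), BBC3 (4.10 ± 0.707) and TP53INP1 (2.93 ± 0.209) were lower. Neighbours in this order overlapped between CDKN1A and GDF15, GDF15 and TNFRSF10B, GADD45A and PMAIP1, MDM2 and BTG2, and PLK3 and BBC3, and the other neighbours did not. After deprivation GDF15 led at 248 ± 62.5 per kilobase. GADD45A (104 ± 3.16), PMAIP1 (101 ± 24.9) and CDKN1A (98.9 ± 25.2) overlapped one another below it, above TNFRSF10B (48.3 ± 9.92) and PLK3 (19.9 ± 3.87). BBC3 (7.26 ± 0.311), MDM2 (7.09 ± 1.33) and BTG2 (6.32 ± 1.48) lay lower, with BBC3 overlapping MDM2 and MDM2 overlapping BTG2, and TP53INP1 (1.79 ± 0.300) was lowest. MDM2, with a longest transcript of 12633 bases, would rank higher if shorter forms were expressed.

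The wider p53 pathway was described with lists of related genes. Of 31 other p53 targets tested 9 rose and 3 fell, with a median of 0.19, where 16.5% of all genes rose and 15.6% fell. SERTAD1, a regulator of cyclin-dependent kinase 4, rose 3.80-fold, PLK2, a paralog of PLK3, rose 3.03-fold, and POLK, a translesion DNA polymerase, rose 2.10-fold. APAF1, the apoptosome scaffold, fell from 53.7 ± 4.10 to 28.8 ± 3.65 (SD, n = 3).

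Among 19 relatives of the arrest genes, 7 were called higher and 1 lower (16.5% and 15.6% of all genes), with a median of 0.11. DDIT3, which encodes CHOP, was also named GADD153 and rose by 5.62 (log2), and PPP1R15A, also named GADD34, the phosphatase subunit that reverses translational arrest, rose 6.43-fold. GADD45B, a paralog of GADD45A, rose 4.81-fold, close to the 4.90-fold of GADD45A, a difference that was not tested. GADD45G was below the filter, at 0.0406 to 0.136 in control and 0.523 to 0.762 in deprived libraries, where 3 reads are worth 0.122 to 0.208. The BTG2 paralogs BTG1 (log2 0.90, limma adjusted p = 0.0053) and BTG3 (0.57, adjusted p = 0.021) rose, but BTG3 did not pass scaled to the total of each library (0.27) or with length and GC content trends removed (0.10). CDKN1B, a paralog of CDKN1A, had a log2 response of 0.03 (limma adjusted p = 0.87), negative under quantile normalization (−0.01), scaling to the total (−0.27) and removal of length and GC content trends (−0.09).

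The 9 stress response genes tested all rose, where 16.5% of all genes did, with a median of 2.10. They are ATF4, ATF3, CEBPB, CEBPG, TRIB3, CHAC1, SESN2 and ASNS, linked to ATF4 and CHOP, and XBP1, the factor of the IRE1 branch of the unfolded protein response. ATF3 rose 15.9-fold, CHAC1, a glutathione-degrading enzyme, 13.8-fold, SESN2, an mTORC1 inhibitor that is also a p53 target, 7.94-fold, and TRIB3, a pseudokinase, 5.01-fold. This list was chosen with its rise already known and is no independent evidence of direction.

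Of 23 regulators and relatives of p53, 3 rose and 3 fell, with a median of −0.08, shares near or below those of all genes (16.5% higher and 15.6% lower). DYRK2, a kinase of p53, fell by 1.20 (log2), KAT5, an acetyltransferase, rose by 0.74, CDKN2A rose by 0.71 and TP73, a p53 paralog, fell by 0.60. CDKN2A did not pass scaled to the total of each library (limma adjusted p = 0.102), nor TP73 with length and GC content trends removed (adjusted p = 0.0964). MDM4, the paralog of MDM2, had a log2 response of 0.06 (limma adjusted p = 0.75), which was negative under quantile normalization (−0.01) and scaling to the total (−0.24).

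Partners of the death genes moved both ways, with 4 of 16 higher and 3 lower (median −0.16), where 16.5% of all genes were higher and 15.6% lower. BMF (log2 −1.17), a BH3-only protein, and BAK1 (−0.69), a pore-forming effector, fell, while MCL1 (0.59), the survival protein that NOXA binds, and CFLAR (0.51), an inhibitor of death receptor signalling, rose. TNFRSF10A, which encodes the paralogous TRAIL receptor DR4, had a log2 response of 0.38 and did not pass (limma adjusted p = 0.0582), but passed without the shYAP3 deprived library (adjusted p = 0.0198) and with length and GC content trends removed (adjusted p = 0.0298). With quantile normalization 2 of these partners rose and 4 fell (14.8% and 17.6% of all genes), and MCL1 did not pass (limma adjusted p = 0.0884). Scaled to the total of each library 0 rose and 6 fell, where 6.09% of all genes rose and 31.1% fell, with MCL1 (adjusted p = 0.198) and CFLAR (adjusted p = 0.339) not past the threshold.

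Genes that p21 acts on or that p53 activation lowers through p21 and the DREAM repressor complex were mixed in the main fit. In the other fits of both lists given below, more genes fell than rose. In a list of 12 genes, made up of cyclins, their kinases and PCNA, 1 rose, CCNE2 (log2 0.69), and 1 fell, CDK6 (−0.65), with a median of −0.21. Of all genes 16.5% rose and 15.6% fell in this main fit. CDK1 (0.52, limma adjusted p = 0.0817) and CCNB1 (−0.44, adjusted p = 0.0927) did not pass. CDK1 was −0.13 with length and GC content trends removed, and passed as higher without the shYAP3 deprived library (0.26, limma adjusted p = 0.0498). CCNB1 passed as lower with quantile normalization (limma adjusted p = 0.00808), scaled to the total of each library (0.00653), with length and GC content trends removed (0.00103) and without the shYAP3 deprived library (0.000523). Of 18 genes lowered through p21 and DREAM 2 rose and 3 fell, with a median of −0.16, shares near or below those of all genes. PLK1 (−0.80), AURKA (−0.58) and CDC20 (−0.57), which drive mitosis, fell, and PLK4 (0.69), a centriole kinase, and TTK (0.74), a spindle checkpoint kinase, rose. With quantile normalization, 1 of the 12 cyclins, kinases and PCNA rose and 5 fell. In that scaling 2 genes of the p21 and DREAM list rose and 4 fell, where 14.8% of all genes rose and 17.6% fell. With length and GC content trends removed, 0 of the 12 cyclins, kinases and PCNA rose and 6 fell, PCNA among them. In that fit 3 genes of the p21 and DREAM list rose and 9 fell, where 17.9% of all genes rose and 19.4% fell. Scaled to the total of each library, 0 of the 12 cyclins, kinases and PCNA rose and 7 fell, again with PCNA. In that scaling 0 of the p21 and DREAM list rose and 10 fell, where 6.09% of all genes rose and 31.1% fell. In bulk libraries fewer cells of a kind and less RNA per cell cannot be told apart, so these values do not measure how many cells divided.

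**Figure D3:**
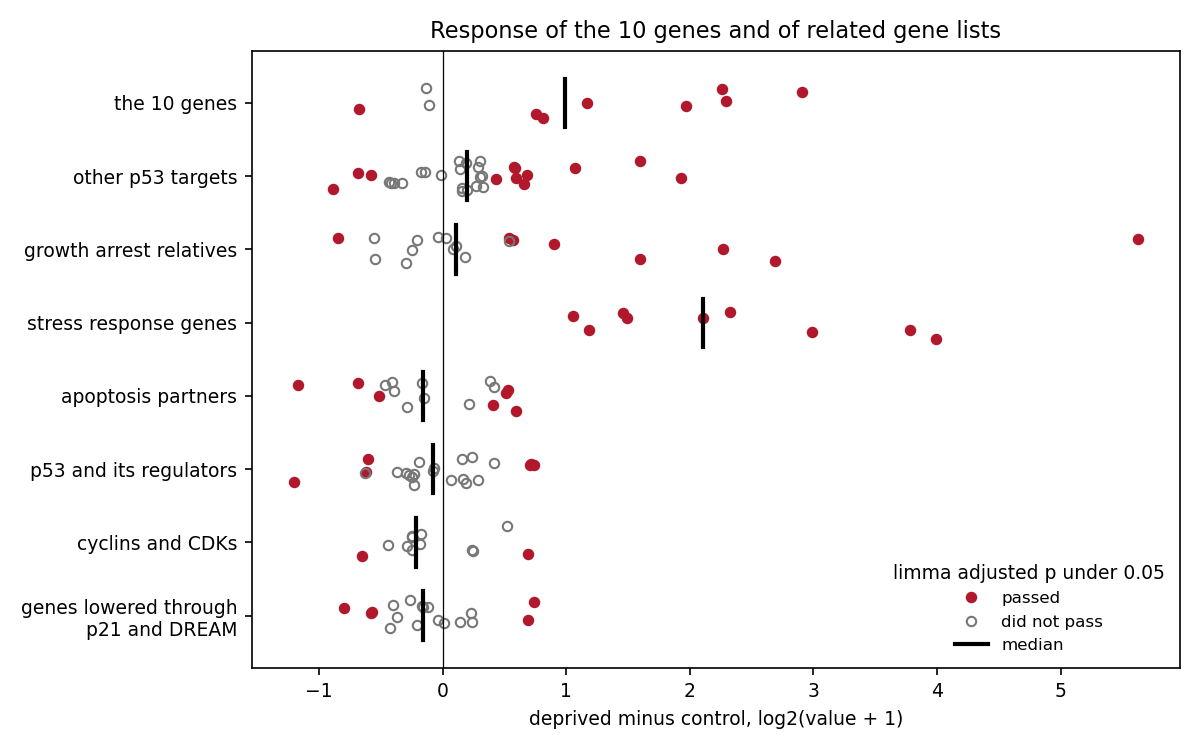
Response to deprivation (x axis, deprived minus control on the log2(value + 1) scale) of the 10 genes and of 7 lists (y axis), one point per gene tested, filled where the gene passed in limma and open where it did not, with a black bar at the median. The 10 genes have a median of 0.99, between the other p53 targets (0.19) and the stress response genes (2.10). PLK2 stands in 2 lists.

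The lists depended on the scaling. Scaled to the total of each library, the median of all genes moved from 0.05 to −0.24, and 6 of the 10 genes rose and 1 fell, with a median of 0.68. In that scaling 3 of 31 other p53 targets rose and 8 fell (median −0.10), 5 of 19 relatives rose and 5 fell (−0.17), and all 9 stress response genes rose (1.80). Over all genes 6.09% rose and 31.1% fell in that scaling, so the shares of other p53 targets and of relatives that fell were no higher than that of all genes. Without the shYAP3 deprived library 7 of the 10 genes rose and 1 fell, and 12 of the 31 other p53 targets rose and 7 fell, where 23.5% of all genes rose and 19.9% fell.

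YAP knockdown, compared over both media, moved 0 of the 10 genes past the threshold in limma, or in edgeR and DESeq2 on recovered reads. Of all genes 1 passed in limma (0.00815%), which was YAP1 itself (limma adjusted p = 0.000825), 1 in edgeR and 7 in DESeq2. At an unadjusted p under 0.05 there were 2 of the 10 genes by each of the 3 tools, BTG2 and PMAIP1. Of all 12263 genes tested, 898 in limma, 891 in edgeR and 1047 in DESeq2 were under that unadjusted threshold. BTG2 stood higher in both shYAP libraries of each medium, at 1.17 and 1.31 times the NC level in control medium for shYAP1 and shYAP3 and 1.60 and 1.496 times after deprivation, with a log2 difference of 0.44 (95% interval 0.10 to 0.79, limma adjusted p = 0.58). PMAIP1 was also higher in both shYAP libraries of each medium, at 1.346 and 1.07 times NC in control medium and 1.26 and 1.64 times after deprivation. Its log2 difference was 0.39 (95% interval 0.01 to 0.77, limma adjusted p = 0.58), but −0.00328 with length and GC content trends removed. MDM2 and PLK3 were below NC in both shYAP libraries of each medium, with log2 differences of −0.25 (95% interval −0.59 to 0.09) and −0.22 (−0.61 to 0.18). The share of all genes on the same side of NC in every shYAP library was not computed, so these sides are a description only. TNFRSF10B stood at 1.01 and 0.8004 times NC in control medium and at 0.841 and 0.658 times after deprivation (log2 −0.29, interval −0.67 to 0.09). The other 5 genes, CDKN1A, BBC3, TP53INP1, GDF15 and GADD45A, had differences between −0.06 (BBC3) and 0.27 (CDKN1A), with intervals that include 0.

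The difference of the response between genotypes passed in 0 of the 10 genes in limma, edgeR and DESeq2, and 0 had an unadjusted p under 0.05 by any of the 3 tools. With 1 NC library per medium, this contrast cannot separate YAP from other differences between the constructs or libraries. Over all 12263 genes tested 0% passed in limma. An unadjusted p under 0.05 was found for 111 of them in limma, 119 in edgeR and 84 in DESeq2. The differences ran from −0.29 (log2, shYAP response minus NC response) for MDM2 to 0.48 for GDF15. With 1 NC library per medium the intervals were wide, −0.71 to 1.68 for GDF15, −0.68 to 1.41 for CDKN1A, −0.59 to 1.11 for PMAIP1 and −0.64 to 0.83 for GADD45A. These intervals are unadjusted. Without the shYAP3 deprived library the GDF15 difference was 0.75 (limma adjusted p = 0.00714), a fit that sets the shYAP1 deprived library against the mean of both shYAP control libraries. Without the shYAP3 control library it was 0.11.

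**Figure D4:**
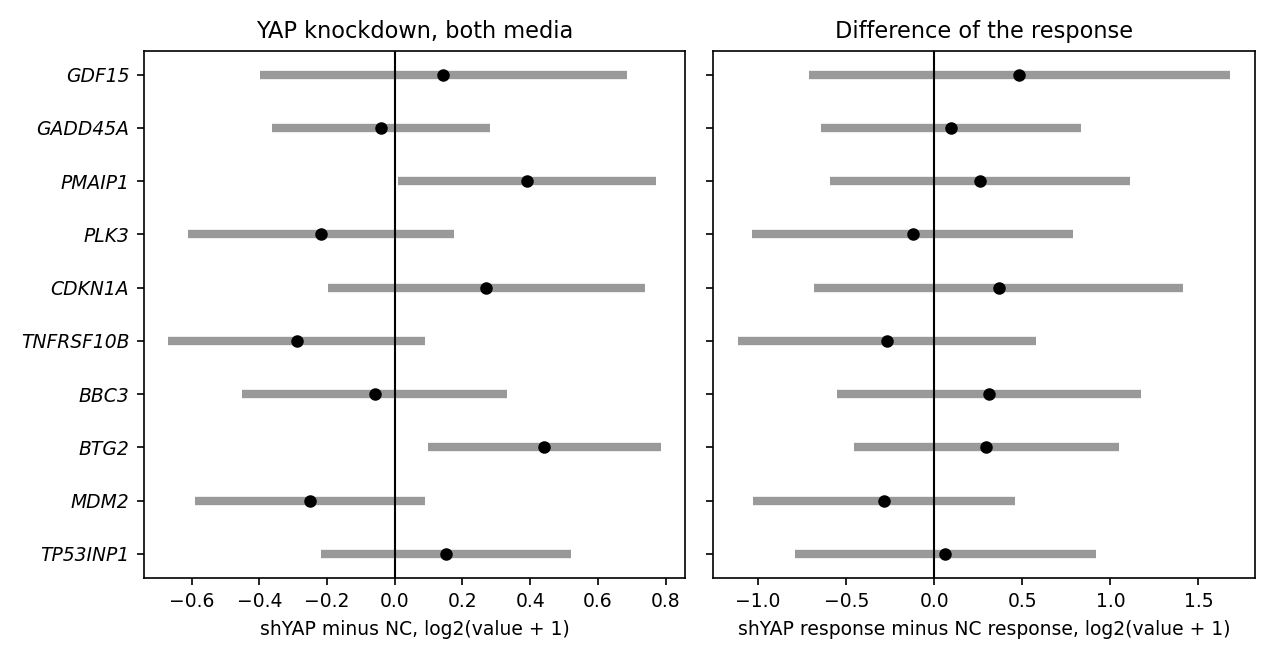
Log2 difference of shYAP and NC cells over both media (left) and difference of their responses to deprivation (right) for the 10 genes, as points with unadjusted 95% limma intervals. The intervals of BTG2 and PMAIP1 lie above 0 in the left panel, and all 10 intervals of the right panel include 0.

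By profile over the 6 libraries, the genes closest to CDKN1A outside the set were PRDM1, KRT16 and PLAUR, at Euclidean distances of 0.24, 0.29 and 0.35 between centred log2(value + 1) profiles. Among the closest to MDM2 were MAP4K4 and ATXN7 (0.0594 and 0.0829), which like MDM2 were lowest in the shYAP3 deprived library. Those closest to GDF15 were CSRNP1, DNAJB1 and SESN2 (0.63, 0.68 and 0.78). These 6 libraries share the contrast of media, so the distances describe the pattern only.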

How the data were processed

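Messenger RNA of 6 HCT116 libraries was sequenced after oligo-dT selection and random fragmentation, per the labels' protocols. Bowtie2, BWA and the build hg19 are named, without role or version, in the submitters' processing notes, and for the counter, the strand setting and the annotation the sources used here state nothing. The deposited signal is a normalized read count per gene whose scaling the authors did not state. Dividing each library by its smallest step (1 read) gave whole numbers for 100% of its values (tolerance 0.01), so whole reads were recovered. Genes with no reads in the NC control library are not analysed here.

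The main test was limma 3.58.1 (R 4.3.3), its trend option on, applied to log2(value + 1) of genes that reached 1 in 2 or more libraries. Response and knockdown came from an additive model of genotype and medium, and the difference of the response and the response of shYAP cells from a fit of the 4 group means. edgeR 4.0.16 and DESeq2 1.42.0 on recovered reads (3848 and 4140 genes called in the response, against 3936), the pseudocount 0.1, no filter, other scalings, a construct block and leaving out each library were alternatives. Removal of length and GC content trends (splines on GENCODE v29, GRCh38) was chosen after seeing the data. The constructs, named in the labels, pair libraries across media. Correlations of deviations between the 2 libraries of a construct came to 0.46 (NC), 0.01 (shYAP1) and 0.33 (shYAP3).

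The genes and lists were chosen with earlier results of these data known. Named were all 10 genes, the 4 genes of each list with the smallest p in the response, YAP1, paralogs, and the 3 nearest profiles of CDKN1A, MDM2 and GDF15, and a few genes under this rule are not reported here. TTK, VIL1, markers and overlapping genes were added after their values were seen. Scripts were tested on simulated data. Promoters are RefSeq's.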

Additional observations from a re-analysis of the deposited data

How the results depend on the processing

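With each library left out in turn, the number of the 10 genes that passed in the response to deprivation ran from 6 to 8 (8 with all libraries). Over all genes 1085 of 12197 to 5303 of 12209 passed in these fits. In the YAP knockdown the number of the 10 genes ran from 0 to 0. In the response of shYAP cells and in the difference, leaving out a shYAP library leaves 1 in its group. Over the omissions MDM2 ran from −0.38 to −0.083 (log2) in shYAP cells, against −0.23 with all libraries. The difference for GDF15 ran from 0.11 to 0.86, against 0.48. The response of shYAP cells gave 0 of the 10 genes, and 0 of all genes in limma, with no filter on low values (4354 of 14987 genes at an unadjusted p under 0.05, and 6 of the 10 genes with an adjusted p of 0.103 to 0.122 that had passed with the filter). With the construct as a replicate block 8 of the 10 genes passed in both responses and 0 in the difference. Of all genes 19.0% passed higher and 17.4% lower in the response to deprivation with the block, and 14.6% and 12.7% in shYAP cells. The block could not be fitted for the knockdown, nor the difference without an NC library. Where 1 library was left in a group, it was assumed to vary as the others.

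Values that changed sign (log2), none of them past the threshold, were as follows. With length and GC content trends removed MDM2 was 0.022 in the response and 0.021 in shYAP cells, PMAIP1 −0.00328 in the knockdown and GADD45A −0.15 in the difference. Scaled to the library total, TP53INP1 (−0.084) and GADD45A (−0.064) changed in the difference, and with quantile normalization BTG2 (0.00955) in shYAP cells. Over the omissions of 1 library, the knockdown ran from −0.22 to 0.097 for BBC3, from −0.092 to 0.024 for GADD45A and from −0.098 to 0.39 for GDF15. The difference ran from −0.12 to 0.25 for TP53INP1, from −0.040 to 0.23 for GADD45A and from −0.37 to 0.12 for PLK3, and BTG2 in shYAP cells from −0.087 to 0.068. The cause was not tested. Over all genes, the response count ran from 1085 without the shYAP3 control library to 5303 without the shYAP3 deprived library, against 3936, with 749 higher and 3820 lower when scaled to the library total, against 2018 and 1918. In shYAP cells it ran from 228 without the shYAP3 control library to 7812 without the shYAP1 deprived library, against 1412, with 2521 in DESeq2, 3357 with the construct block, 2805 with length and GC content trends removed and 3167 scaled to the total. In the difference, leaving out the shYAP1 deprived library gave 2739 genes and the shYAP3 deprived library 278, against 0. In the knockdown DESeq2 gave 7, against 1. A count of 3 reads, worth 0.122 to 0.208, is the limit of detection.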
